A study of Mus musculus with 12 samples.

Results

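The MHC class II genes are described here in cochleae of wild-type and 35delG homozygous mice, together with what the level of 1 of them, H2-Ea-ps, shows about the mice compared. The 7 genes were chosen by name from the 37432 genes of the expression table. They are H2-Ea-ps, the alpha chain of the E molecule, H2-Eb1, its beta chain, H2-Aa and H2-Ab1, the alpha and beta chains of the A molecule, H2-DMa, Cd74 and Ciita. H2-Ea-ps was chosen because it was listed at 0 in all 6 wild-type libraries and above 0 in all 6 homozygous ones, so its difference between genotypes is given as a description and was not tested. The other 6 genes were added by function, and their genotype differences were tested except for Ciita, whose level was too low.

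Messenger RNA was sequenced from the cochlea, the coiled hearing part of the inner ear, of males at P14, after it was cut into its apical, middle and basal turns. Each combination of genotype (wild-type, or homozygous for the 35delG deletion in Gjb2, which encodes the gap junction protein connexin 26) and turn had 2 libraries, 12 in all. The homozygous males were made by tetraploid complementation, in which injected embryonic stem cells form the pup and the B6D2F1 tetraploid host embryo the placenta. Pups were taken by cesarean and raised by ICR foster mothers. The stem cells came from heterozygous parents that descended from haploid cells injected into B6D2F1 oocytes (C57BL/6J crossed with DBA2). That line was then crossed to C57BL/6J for several generations, during which carriers of the H19-DMR and IG-DMR deletions of the haploid cells were discarded, and its background is stated as almost C57BL/6J. The wild-type males were bought at the same age, and their strain is not given in the sources used here. The number of mice or cochleae in a library is not given either. The 35delG genotype, the way the pups were made, the fostering and the origin of the mice therefore cannot be told apart in any difference between genotypes below.

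MHC class II molecules sit on the surface of dendritic cells, macrophages and B cells and present fragments of taken-up protein to CD4 T cells. Each is a pair of an alpha and a beta chain, which in mice form the A and the E molecule. The invariant chain Cd74 fills the groove while the pair travels to the endosome, where cathepsins cut it away and the H2-DM molecule, of which H2-DMa is the alpha chain, exchanges the remaining piece for a peptide. Transcription of these genes depends on Ciita, a coactivator that binds no DNA itself and works through factors held on the X and Y boxes of the promoters. The class II genes are among the most variable between inbred mouse strains. Strains of the b haplotype, such as C57BL/6, make no E alpha chain because a deletion removes the promoter and the first exon of its gene, whereas strains of the d haplotype, such as DBA/2, make it. The mouse reference genome is that of C57BL/6J, and its annotation accordingly carries the gene under the name H2-Ea-ps, for pseudogene.

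The H2-Ea-ps gene lies on the minus strand at chr17:34341959-34344645 in mm10, the build of the files. In the GENCODE annotation of GRCm38, the same assembly, it is a polymorphic pseudogene whose longer transcript has 4 exons and 1036 bases, 684 of them coding. The coding stretch of its first annotated exon, 247 bases at chr17:34344398-34344644, is shown because it is where the annotated gene begins. It opens with the codon GAG and not with a start codon.

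H2-Ea-ps first annotated exon, coding part: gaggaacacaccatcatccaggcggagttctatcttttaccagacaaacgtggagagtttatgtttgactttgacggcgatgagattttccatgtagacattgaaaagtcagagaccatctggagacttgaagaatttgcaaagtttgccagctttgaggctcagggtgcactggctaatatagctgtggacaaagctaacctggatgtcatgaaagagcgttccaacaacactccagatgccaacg

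The other chains of the locus are close by. In the same table H2-Aa is at chr17:34282744-34287823 (minus strand), H2-Ab1 at chr17:34263209-34269419, H2-Eb1 at chr17:34305867-34316674 and H2-DMa at chr17:34122832-34139101 (all 3 on the plus strand). Ciita is at chr16:10480059-10528418. RefSeq promoter windows of 300 bases (250 before the start of transcription and 50 from it on, build GRCm38.p6) were at hand for 3 of the 6 members looked up, H2-Aa, H2-Eb1 and H2-DMa. The windows of H2-Aa (chr17:34287774-34288073, minus strand) and H2-Eb1 (chr17:34305617-34305916, plus strand) are shown because they hold the sequence elements through which class II transcription is switched on. Capitals mark the Y box, searched as CTGATTGG, and the core of the X box before it, searched as GCAAC.

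H2-Aa: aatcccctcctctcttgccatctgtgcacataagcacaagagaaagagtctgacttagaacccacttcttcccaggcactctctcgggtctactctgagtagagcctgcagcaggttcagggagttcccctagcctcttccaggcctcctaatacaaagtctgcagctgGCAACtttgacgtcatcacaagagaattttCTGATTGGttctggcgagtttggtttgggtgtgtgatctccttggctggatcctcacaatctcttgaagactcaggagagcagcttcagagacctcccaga

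H2-Eb1: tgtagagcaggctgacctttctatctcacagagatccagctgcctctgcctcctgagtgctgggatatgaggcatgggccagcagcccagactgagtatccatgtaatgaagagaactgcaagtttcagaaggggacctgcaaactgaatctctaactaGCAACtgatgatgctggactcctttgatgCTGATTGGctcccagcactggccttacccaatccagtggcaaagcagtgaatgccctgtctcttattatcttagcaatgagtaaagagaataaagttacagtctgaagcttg

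The X core and the Y box started 30 bases apart in H2-Aa and 29 bases apart in H2-Eb1. On either strand, CTGATTGG was found in 4.1% and GCAAC in 35.2% of the 32851 windows of this length, and GCAAC starting 15 to 60 bases before CTGATTGG on the same strand in 0.18% of them (59 windows). Of the other class II genes with a window, H2-Oa (30 bases apart) and H2-Eb2 (29 bases apart) had the pair. Neither window of H2-DMa, nor those of H2-DMb1, H2-DMb2 and H2-Ob, held these letters in this arrangement. These matches describe the letters of the reference genome only.

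Levels are given as FPKM (fragments scaled to gene length and to the size of the library, so that levels of different genes can be compared per length), divided by a factor per library that lines up the genes detected everywhere. The factors lay between 0.917 and 1.06, and the FPKM of a library summed to between 316425 and 408162. Read counts were not used here, so the counting error and the lowest level that could be detected in a library are unknown. Precision can be judged only from the 2 libraries of a group. Of the 5931 genes with a median of at least 10 scaled FPKM, 14 were listed at 0 in some library, so a value of 0 is a listed value and not proof of absence. The libraries expressed cochlear genes, with Coch, an abundant extracellular protein of the cochlea, at 425 to 5470 scaled FPKM. In pieces of tissue, fewer cells of a type and less RNA per cell cannot be told apart.

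H2-Ea-ps, the E alpha chain, was listed at 0 in each of the 6 wild-type libraries. The homozygous libraries had 1.11 and 2.38 scaled FPKM (apical), 11.8 and 1.46 (middle) and 1.91 and 3.86 (basal). Replicate 1 of the homozygous middle turn was thus the highest, and the remaining 5 homozygous libraries lay within 1.11 to 3.86. The means of the apical, middle and basal groups were 1.75 ± 0.902, 6.64 ± 7.33 and 2.89 ± 1.38 (SD, n = 2 each). The order of the turns by mean was middle, basal, apical, but neighbours in this order did not differ beyond their spread. The 2 middle libraries enclosed both basal ones, and the basal and apical ranges overlapped. No fold change is given, because the wild-type group is listed at 0 and its depth is unknown.

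**Figure D1:**
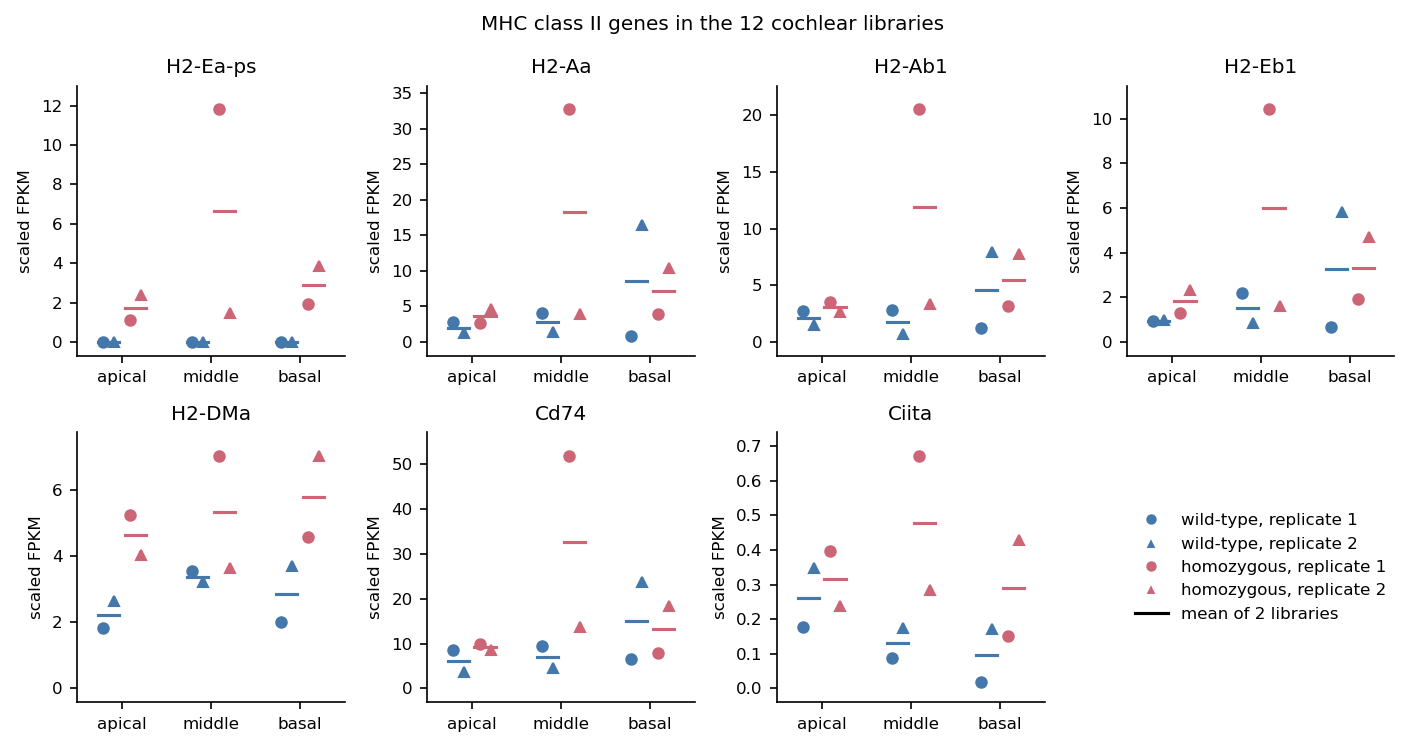
Levels of the 7 class II genes (y axis, scaled FPKM, a separate linear scale for each gene) in the apical, middle and basal turns (x axis), 1 point per library with the mean of each group of 2 as a bar. H2-Ea-ps is at 0 in the 6 wild-type libraries and between 1.11 and 11.8 in the 6 homozygous ones, and homozygous middle replicate 1 is the highest library for each of the 7 genes.

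H2-Eb1, the partner of the E alpha chain, was read in both genotypes. The wild-type libraries had 0.918 and 0.963 scaled FPKM in the apical turn, 2.19 and 0.836 in the middle turn and 0.691 and 5.82 in the basal turn. The homozygous libraries had 1.29 and 2.34, 10.4 and 1.62, and 1.92 and 4.72 in the same order. The genotypes did not overlap in the apical turn and overlapped in the middle and basal turns. Within the homozygous libraries, which the choice of H2-Ea-ps did not compare with each other, H2-Ea-ps followed H2-Eb1 closely. Their ratio was 0.862 and 1.02 in the apical, 1.13 and 0.900 in the middle and 0.995 and 0.818 in the basal turn, a mean of 0.954 ± 0.116 (SD, n = 6), while H2-Ea-ps itself spanned a 10.7-fold and H2-Eb1 an 8.11-fold range. The annotated E alpha and E beta chains were thus at nearly equal levels per length wherever H2-Ea-ps was present. Class II genes vary between strains. How far alignment to the C57BL/6J reference changes the levels, ratios and genotype differences of the members was not tested. The ratio of H2-Ea-ps to H2-Aa was between 0.361 and 0.510 over the 6 homozygous libraries. Its ratio to H2-Ab1 varied more, from 0.313 to 0.889, as did that to Cd74, from 0.107 to 0.279. Its ratio to H2-DMa, from 0.210 to 1.68, varied the most.

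**Figure D2:**
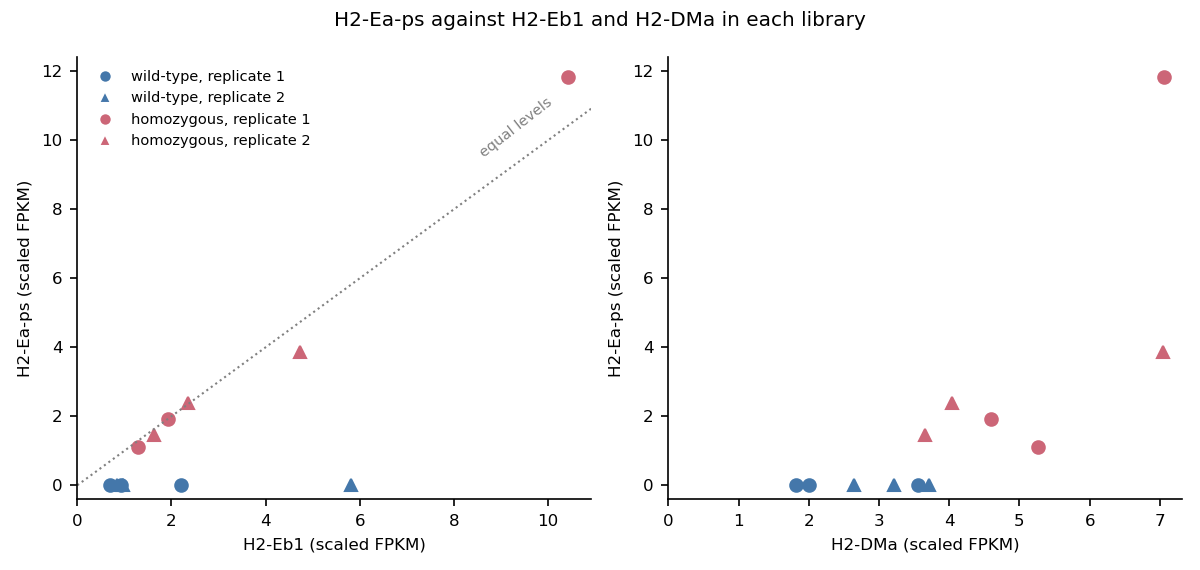
Level of H2-Ea-ps (y axis, scaled FPKM) against H2-Eb1 (left) and H2-DMa (right; x axes, scaled FPKM) in the 12 libraries, 1 point each. The 6 homozygous libraries lie near the dotted line of equal levels for H2-Eb1 (ratios 0.818 to 1.13) and scatter for H2-DMa (ratios 0.210 to 1.68), and the wild-type libraries lie at 0, the value H2-Ea-ps was chosen by.

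H2-Aa and H2-Ab1, the chains of the A molecule, were present in both genotypes. H2-Aa was at 2.75 and 1.31 scaled FPKM in the wild-type apical, 4.10 and 1.46 in the middle and 0.821 and 16.4 in the basal turn, and at 2.64 and 4.67, 32.8 and 3.93, and 4.0 and 10.4 in the homozygous turns. The genotypes overlapped in each of the 3 turns. H2-Ab1 was at 2.75 and 1.46, 2.81 and 0.725, and 1.26 and 7.95 scaled FPKM in the wild-type turns, and at 3.54 and 2.68, 20.5 and 3.33, and 3.13 and 7.80 in the homozygous turns. Its genotypes did not overlap in the middle turn and overlapped in the other 2 turns. The A alpha chain stood to the A beta chain at a median ratio of 1.23 in wild-type and 1.30 in homozygous libraries, with ranges of 0.654 to 2.07 and 0.746 to 1.74 that overlapped.

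Cd74, the invariant chain, had the highest level of the 7 genes in every library. It was at 8.57 and 3.60 scaled FPKM in the wild-type apical, 9.52 and 4.53 in the middle and 6.55 and 23.7 in the basal turn. The homozygous libraries had 9.87 and 8.53, 51.9 and 13.6, and 8.01 and 18.3. The genotypes did not overlap in the middle turn and overlapped in the basal turn, where a wild-type library was the highest, and in the apical turn, where wild-type replicate 1 exceeded homozygous replicate 2. Ciita, the coactivator, had the lowest level of the 6 genes read in all libraries. It was at 0.179 and 0.347, 0.0869 and 0.175, and 0.0196 and 0.171 scaled FPKM in the wild-type turns and at 0.396 and 0.240, 0.673 and 0.283, and 0.151 and 0.429 in the homozygous ones. No library reached 1 FPKM, so Ciita did not pass the filter of at least 1 FPKM in 2 or more libraries and was not tested. The genotypes did not overlap in the middle turn.

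H2-DMa, the alpha chain of the peptide exchanger, varied least. The wild-type libraries had 1.82 and 2.64 scaled FPKM in the apical, 3.55 and 3.22 in the middle and 2.01 and 3.71 in the basal turn. The homozygous libraries had 5.26 and 4.04, 7.05 and 3.65, and 4.60 and 7.04. Both homozygous libraries were above both wild-type ones in each of the 3 turns, and over all turns only wild-type basal replicate 2 (3.71) exceeded a homozygous library, middle replicate 2 (3.65). The highest library exceeded the lowest 2.04-fold in wild-type and 1.93-fold in homozygous cochleae, against 20.0-fold and 12.4-fold for H2-Aa.

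The genotypes were compared with limma on log2(scaled FPKM + 1) across all 16215 genes that passed the filter, and a gene was called if its Benjamini-Hochberg adjusted p was under 0.01 and it differed more than 2-fold. Log2 differences on this scale understate the change of genes near 1 FPKM. None of the 5 members tested (H2-Aa, H2-Ab1, H2-Eb1, H2-DMa and Cd74) was called in any turn or in the mean of the 3 turns. In the apical turn, the basal turn and the mean every estimate was under 2-fold (log2 difference at most 0.81, 0.83 and 0.97). The fold limit alone thus kept them from being called there, whatever the p-value. The share of all tested genes that was called was 0.179% for the apical, 0.179% for the middle and 4.29% for the basal turn, and 0.376% for their mean. In each of these comparisons 1 of the 5 members had an unadjusted p under 0.05, Cd74 in the middle turn and H2-DMa in the other 3, a level reached by 16.4% (apical), 25.4% (middle), 32.4% (basal) and 18.6% (mean) of all genes. The differences were nevertheless mostly on the same side. All 5 members had higher homozygous estimates in the apical turn, the middle turn and the mean of the turns, and 4 of the 5 did in the basal turn. Their median log2 difference was 0.62 in the apical, 1.86 in the middle, 0.42 in the basal turn and 0.81 in the mean, where the median over all tested genes was −0.03, 0.04, −0.02 and 0.00. These genes moved together from library to library, so the shared direction is not 5 separate observations.

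H2-DMa had the smallest error. Its log2 difference was 0.71 ± 0.189 (SE) in the mean of the turns (95% interval 0.28 to 1.14), with a limma adjusted p of 0.0896. By turn it was 0.81 for the apical, 0.48 for the middle and 0.83 for the basal turn, each ± 0.327 (SE), with adjusted p of 0.267, 0.391 and 0.114. It did not pass the threshold in any of them. Of all tested genes, 1.53% had both homozygous libraries above both wild-type libraries in each of the 3 turns, as H2-DMa did. For a single turn the share was 26.9% (apical), 31.3% (middle) and 26.2% (basal). Of the 5 tested members, 2 did so in the apical turn (H2-Eb1, H2-DMa), 3 in the middle turn (H2-Ab1, H2-DMa, Cd74) and 1 in the basal turn (H2-DMa).

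The chains of the A and E molecules and Cd74 had wide intervals. In the mean of the turns the log2 difference was 0.97 ± 0.647 (SE) for H2-Aa (95% interval −0.50 to 2.44), 0.92 ± 0.489 for H2-Ab1 (−0.19 to 2.03), 0.65 ± 0.453 for H2-Eb1 (−0.38 to 1.68) and 0.81 ± 0.432 for Cd74 (−0.17 to 1.79), with limma adjusted p between 0.365 and 0.505. The largest estimates were in the middle turn, with 1.91 for H2-Ab1, 1.87 for Cd74, 1.86 for H2-Aa and 1.18 for H2-Eb1 (adjusted p 0.163 to 0.385). In the basal turn Cd74 was at −0.05 (adjusted p = 0.974) and the A and E chains were between 0.27 and 0.42. The genotype effect in the basal turn minus that in the middle turn was called for 8.91% of all genes and for 0 of these 5 members, none of which had an unadjusted p under 0.05 (limma). It was −1.92 ± 1.06 (SE) for Cd74, between −1.49 and −0.91 for the A and E chains and 0.35 for H2-DMa.

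**Figure D3:**
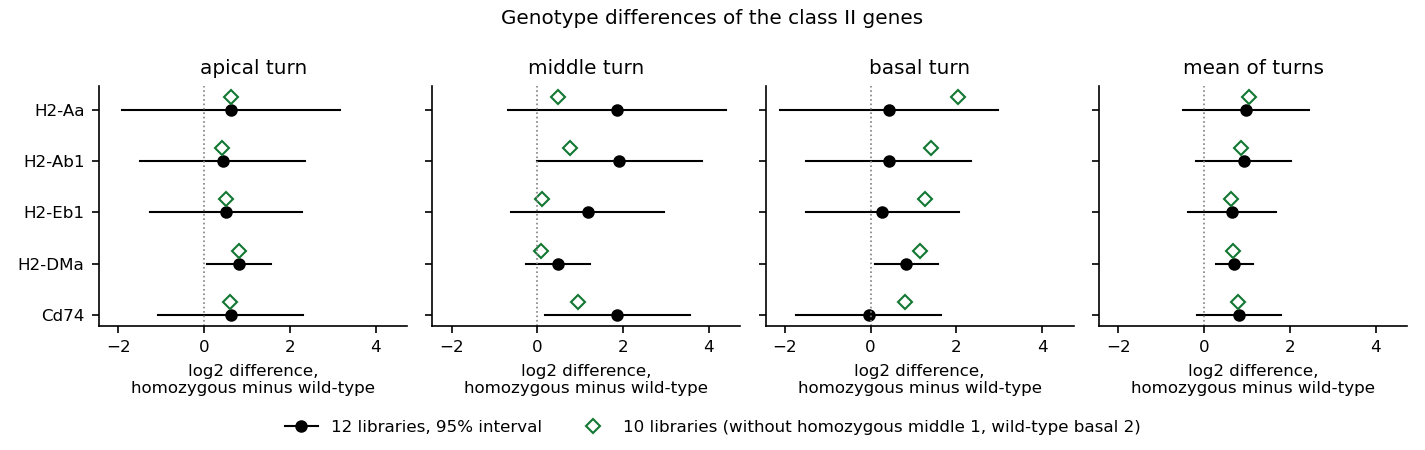
Log2 differences between genotypes (x axis, homozygous minus wild-type on the log2(scaled FPKM + 1) scale) of the 5 tested members, in each turn and in the mean of the turns. Filled points with 95% intervals use the 12 libraries and open diamonds leave out homozygous middle replicate 1 and wild-type basal replicate 2. The diamonds lie at 0.11 to 0.94 in the middle turn for the A and E chains and Cd74 and at 0.80 to 2.05 in the basal turn.

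Of the 12 libraries, 2 stood apart in their class II level. Summed over the 6 members other than H2-Ea-ps, homozygous middle replicate 1 had 123 and wild-type basal replicate 2 had 57.8 scaled FPKM, and the other 10 libraries had 10.3 to 48.7. The same 2 libraries were the highest for markers of leukocytes. All 15 macrophage markers were in the table and passed the filter, and their sum was 842 and 902 scaled FPKM in these 2 libraries against 112 to 330 in the others, led by Lyz2 at 455 and 462. All 8 B cell markers passed, with sums of 230 and 120 against 15.3 to 73.7. Their defining markers Cd79a (29.4 and 8.60) and Cd79b (34.0 and 13.9) were highest in these 2 libraries. The 4 general leukocyte markers summed to 211 and 90.5 against 10.8 to 38.1. By group, the macrophage sum was 168 and 112 in the wild-type apical, 293 and 239 in the middle and 309 and 902 in the basal turn, and 187 and 283, 842 and 253, and 221 and 330 in the homozygous turns. Of the 11 dendritic cell markers 5 passed the filter, Xcr1 and Ccr7 stayed under 1 scaled FPKM throughout, and the sum was 4.70 to 16.2 with homozygous basal replicates 1 and 2 the highest. Without Flt3, a sum added after the values were seen, the other 10 dendritic cell markers were also highest in homozygous middle replicate 1 (11.6) and wild-type basal replicate 2 (11.3), against 3.68 to 8.72 in the other libraries. Of the 8 T cell markers only Cd4 passed, and the sum was 1.38 to 4.22. No gene of these 5 lists was called between genotypes in any turn (limma). Calls over all genes were 0.179% (apical), 0.179% (middle) and 4.29% (basal). Unadjusted p was under 0.05 (limma) for 4 of 15 macrophage markers when apical libraries were compared (all genes 16.4%). Middle counts were 6 of 8 B cell, 1 of 4 leukocyte and 1 of 5 tested dendritic cell markers (all genes 25.4%). Basal counts were 2 of 15 macrophage and 1 of 5 tested dendritic cell markers (all genes 32.4%). Lists not named for a turn had none, and markers of a list are not independent of each other. The part of leukocyte numbers in the class II levels was not tested.

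**Figure D4:**
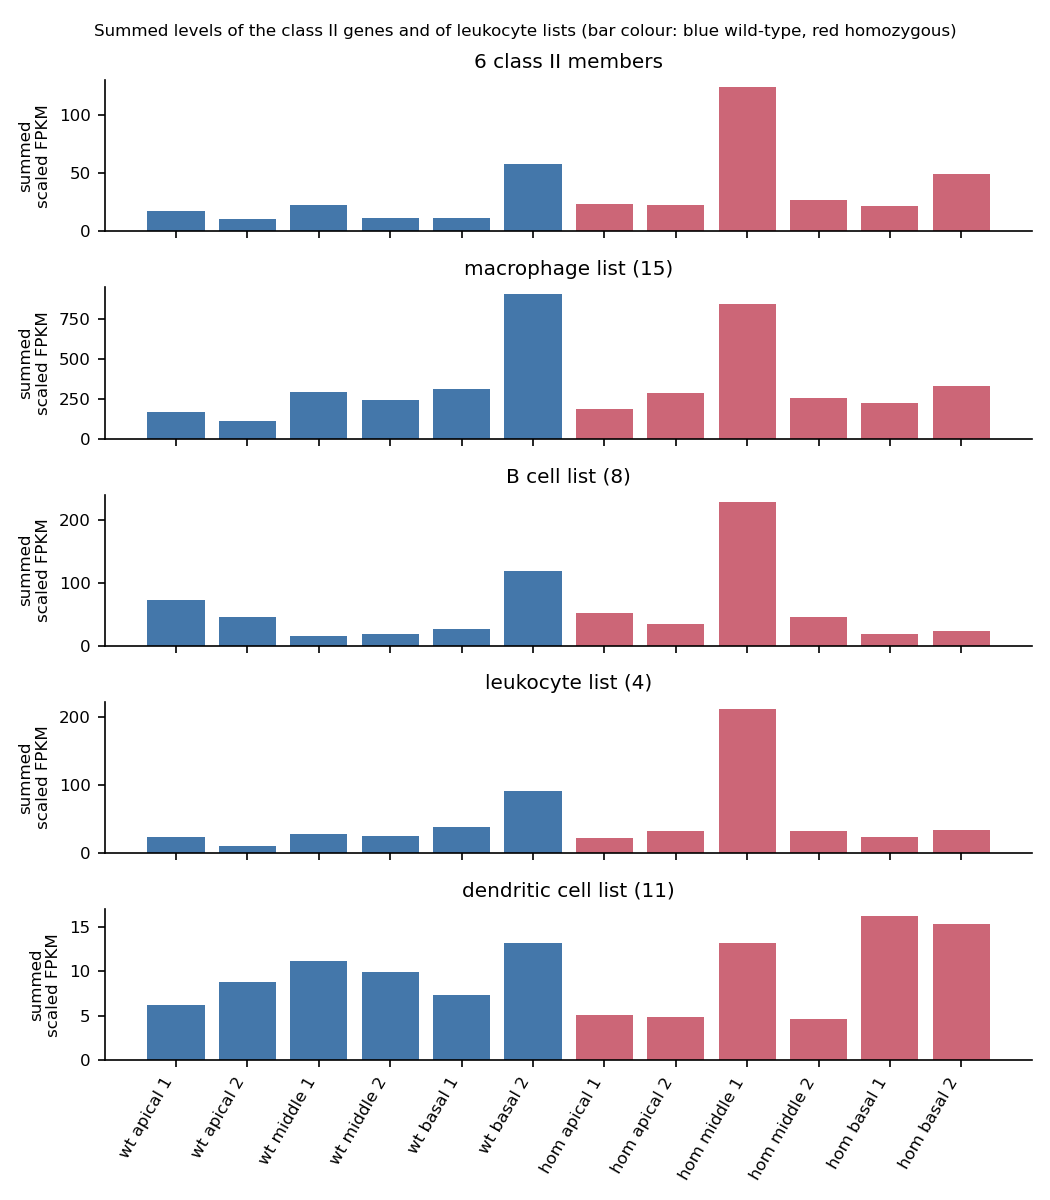
Summed scaled FPKM (y axes, from 0) of the 6 class II members other than H2-Ea-ps and of the macrophage, B cell, leukocyte and dendritic cell lists in the 12 libraries (x axis, wt wild-type, hom homozygous). Homozygous middle replicate 1 and wild-type basal replicate 2 have the 2 highest sums for the class II members, the macrophage, the B cell and the leukocyte lists. The dendritic cell list is highest in the 2 homozygous basal libraries, where Flt3 makes up 10.8 of 16.2 and 6.60 of 15.3.

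Without these 2 libraries, a comparison added after the values were seen and leaving out 1 library of each genotype, the estimates for single turns moved. In the middle turn the log2 difference was 0.48 for H2-Aa, 0.75 for H2-Ab1, 0.11 for H2-Eb1, 0.94 for Cd74 and 0.09 for H2-DMa. In the basal turn H2-Aa was at 2.05, H2-Ab1 at 1.42, H2-Eb1 at 1.27, H2-DMa at 1.15 and Cd74 at 0.80, so that Cd74 turned from just under 0 to above it. In the mean of the turns the 5 members were at 1.05 (H2-Aa), 0.87 (H2-Ab1), 0.63 (H2-Eb1), 0.68 (H2-DMa) and 0.78 (Cd74). The 2 libraries were picked by the levels of these same genes, so leaving them out narrows the spread by that choice. No p-value is given for this reason. No member was called. Left out singly, the 2 libraries moved the mean of the turns in opposite directions. H2-Aa was at 0.51 without homozygous middle replicate 1 and at 1.51 without wild-type basal replicate 2, H2-Ab1 at 0.54 and 1.25, H2-Eb1 at 0.30 and 0.99, and Cd74 at 0.50 and 1.1.

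Among the turns, none of the 5 tested members was called and none had an unadjusted p under 0.05 (limma, both genotypes together). H2-Ea-ps is left out of this count, since its wild-type values of 0 carry no information on the turns. Basal minus apical was called for 0.438%, middle minus apical for 0.037% and basal minus middle for 0% of all genes. The 5 estimates were above 0 for basal minus apical, at 0.24 to 0.83, and for middle minus apical, at 0.29 to 0.89, and lay between −0.12 and 0.07 for basal minus middle. Without wild-type basal replicate 2, basal minus apical was 0.018 for H2-Aa, 0.065 for H2-Ab1, 0.080 for H2-DMa, 0.18 for H2-Eb1 and 0.28 for Cd74. Without that library and homozygous middle replicate 1, middle minus apical was −0.083 for H2-Ab1. The estimates of all 15 macrophage markers were also above 0 for basal minus apical and middle minus apical, with medians of 0.87 and 0.69 and no call. Of these 15, 11 and 9 had an unadjusted p under 0.05 (limma), a level reached by 25.4% and 12.1% of all genes. The markers are not independent of each other.

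Besides the members, 5 further class II chains were in the table, and 3 of them passed the filter. H2-DMb1, the beta chain that pairs with H2-DMa, was at 6.02 and 7.32 scaled FPKM in the wild-type apical, 6.0 and 6.83 in the middle and 9.63 and 6.60 in the basal turn. The homozygous libraries had 6.36 and 5.68, 5.74 and 4.76, and 2.40 and 4.10. Its estimate was thus lower where that of H2-DMa was higher, with a log2 difference of −1.11 ± 0.240 (SE) in the basal turn (limma adjusted p = 0.0162, not called) and −0.49 ± 0.138 in the mean of the turns (adjusted p = 0.102). The ratio of H2-DMa to H2-DMb1, looked at after both levels were seen, was 0.208 to 0.592 in the 6 wild-type and 0.711 to 1.92 in the 6 homozygous libraries, which did not overlap. H2-DMb1 and H2-DMb2 are close copies, and reads that fit both were dropped when only unique alignments were kept, so the level of either is uncertain. H2-DMb2 (0.173 to 2.84 scaled FPKM) and H2-Ob (0.0665 to 3.23) passed the filter and were not called, and H2-Eb2 and H2-Oa did not pass.

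Of the 12 genes of class II transcription, all passed the filter and none was called in any comparison. Between 0% and 8.91% of all genes were called in these comparisons. An unadjusted p under 0.05 (limma) was found for 1 (apical), 4 (middle), 3 (basal) and 2 (mean of the turns) of the 12. That level was reached by 16.4%, 25.4%, 32.4% and 18.6% of all genes in the same order. Among them are X and Y box factors (Rfx5, Rfxap, Rfxank, Nfya, Nfyb, Nfyc, Creb1), both chains of the interferon gamma receptor (Ifngr1, Ifngr2) and interferon regulatory factors (Irf1, Irf8). The highest by mean level, Nfyc and Ifngr1, had wild-type medians of 17.7 and 17.8 and homozygous medians of 18.9 and 18.0 scaled FPKM. Rfx5, which holds the X box complex, was at a median of 3.89 in wild-type and 5.42 in homozygous libraries. Other box factors went the other way: Rfxap was at 11.9 and 9.61, Creb1 at 10.4 and 8.21 and Nfyb at 9.30 and 7.54. Rfx5 and these factors were picked after their values were seen. In the mean of the turns 7 of the 12 estimates were higher for homozygous libraries, and the median log2 difference of the 12 was 0.02.

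Of the 9 genes of antigen processing and class II turnover, all passed and 2 were called, both lower in the homozygous basal turn, where 4.29% of all genes were called. Ctsl, a cathepsin that degrades the invariant chain in thymic epithelial cells, was at 242 and 219 scaled FPKM in wild-type and 82.4 and 122 in homozygous basal libraries (log2 difference −1.19 ± 0.215 SE, limma adjusted p = 0.00932). Ifi30, a thiol reductase that opens disulfide bonds of antigens, was at 50.5 and 42.9 against 16.1 and 18.6 (−1.38 ± 0.205, adjusted p = 0.00646). The difference of Ifi30 was in the other direction in the middle turn (0.79), and its effect in the basal minus that in the middle turn was called (−2.17 ± 0.289, adjusted p = 0.00284). The 3 highest genes of the list were Ctsd, Ctsl and Ctsb, and Ctss, the cathepsin that degrades the invariant chain in antigen presenting cells, was at medians of 32.7 and 33.3.

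MHC class I, which presents peptides from inside the cell on nearly all cell types, served as a comparison. Of its 21 genes 20 passed and 2 were called, both lower in the homozygous basal turn (4.29% of all genes). H2-K1, a class I heavy chain, was at 99.8 and 85.0 scaled FPKM in wild-type and 31.4 and 29.9 in homozygous basal libraries (−1.56 ± 0.175, adjusted p = 0.00317), and H2-T23 at 79.3 and 33.9 against 11.8 and 10.9 (−2.10 ± 0.361, adjusted p = 0.00849). The estimate was higher for homozygous libraries in 19 of the 20 genes in both the apical and the middle turn, with median log2 differences of 0.46 and 0.74 and no call, and in 4 of the 20 in the basal turn. An unadjusted p under 0.05 (limma) was found for 9 (apical), 14 (middle) and 9 (basal) of the 20. That level was reached by 16.4%, 25.4% and 32.4% of all genes. The genes of this list are not independent of each other. These 2 calls and those of Ctsl and Ifi30 depended on the setting. The count of 4 was 0 with library weights, 0 with only the basal libraries fitted, 1 with no filter and 1 with the replicate block. Over all genes the 696 calls of the basal turn became 22, 0, 89 and 177 in the same order. The count also moved with 1 library left out, even an apical one. Apical libraries enter the basal comparison only through the shared estimate of the spread. Such a fit leaves 1 library in a group, so its calls are not listed. The basal effect minus the middle effect was called for 4 class I genes (8.91% of all genes), all negative: H2-K1 (−2.49), H2-D1 (−2.28), Tapbp (−1.38) and Tapbpl (−1.58), the last 2 being chaperones of peptide loading. H2-K1 and H2-D1 differ in sequence between MHC haplotypes, and how far alignment to the C57BL/6J reference changes their counts was not tested. The 3 highest genes of the list were B2m, the light chain of class I, and the chaperones Calr and Pdia3, and B2m was at medians of 239 in wild-type and 355 in homozygous libraries.

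The surroundings of H2-Ea-ps were then examined. Within 1 Mb of its start lay 170 other genes, of which 111 passed the filter, the class II members of chromosome 17 among them. None was called in the apical or middle turn or in the mean of the turns (19, 41 and 35 of the 111 had an unadjusted p under 0.05, limma, a level reached by 16.4%, 25.4% and 18.6% of all genes). In the basal turn 3 were called, 2.7% of the 111 against 4.29% of all genes: H2-K1, Vwa7 (3.20 ± 0.546, adjusted p = 0.00828) and Atp6v1g2, which encodes a subunit of the vacuolar proton pump (2.81 ± 0.405, adjusted p = 0.00579). This count was 0 with library weights, 0 with only the basal libraries, 1 with no filter and 1 with the replicate block. Over all genes the 696 calls became 22, 0, 89 and 177 in the same order. The count also moved up or down with 1 library left out, including libraries of other turns, which enter only through the shared estimate of the spread. Both homozygous libraries were above both wild-type ones for 40.5% (apical), 55.9% (middle) and 22.5% (basal) of the 111. Over all genes this share was 26.9%, 31.3% and 26.2% in the same order, so the basal share was below it. Both homozygous libraries were below both wild-type ones for 15 (apical), 15 (middle) and 31 (basal) of the 111, and for 2 in all 3 turns. They were above in all 3 turns for 8 of the 111 (7.21%, against 1.53% of all genes): H2-DMa, Ring1, Vps52, Rxrb, Atf6b, Vars, Bag6 and Ddx39b. For Vps52 (10.4 to 13.0 against 14.3 to 18.2 scaled FPKM), Rxrb (18.2 to 19.7 against 20.2 to 23.3) and Vars (7.19 to 9.30 against 10.1 to 17.6) the 6 homozygous libraries were above all 6 wild-type ones, as they were for 0.808% of all genes. These genes are neighbours and are not independent of each other.

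**Figure D5:**
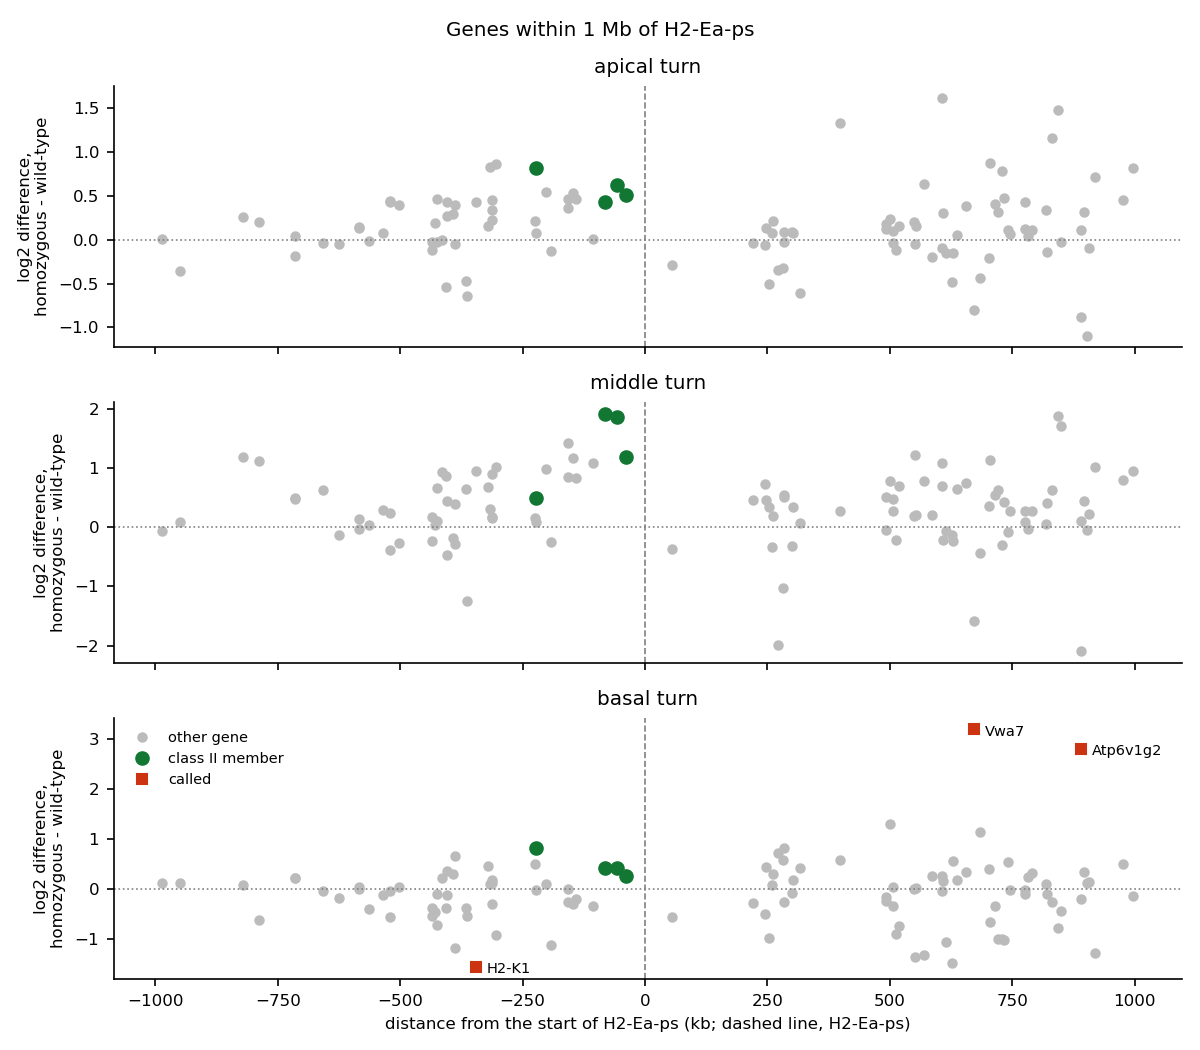
Log2 difference between genotypes (y axis, homozygous minus wild-type, a separate scale for each turn) of the 111 tested genes within 1 Mb of H2-Ea-ps, against the distance of their start from that of H2-Ea-ps (x axis, kb). Members of the class II genes are green, called genes are red squares, and only H2-K1, Vwa7 and Atp6v1g2 in the basal turn are called.

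Genes known to differ between inbred strains gave no call in comparisons where between 0% and 8.91% of all genes were called. Of the 10 in the list 6 passed the filter. Nnt, a mitochondrial transhydrogenase that is truncated in C57BL/6J, was at 0.957 to 4.73 scaled FPKM in wild-type cochleae and 4.26 to 7.14 in homozygous ones (log2 difference in the mean of the turns 0.66 ± 0.241 SE, limma adjusted p = 0.185). Glo1, which is duplicated in DBA/2, was at 11.2 to 20.0 and 17.7 to 29.5 (0.62 ± 0.168, adjusted p = 0.0927). For both genes the genotypes overlapped. Gpnmb, which carries a stop codon in DBA/2J, varied from 0.582 to 124 in wild-type cochleae and from 0.493 to 56.9 in homozygous ones. Alad was at 16.7 to 37.9 and 21.0 to 40.1. Leaving out wild-type basal replicate 2 leaves that group with 1 library. The basal log2 difference was then 1.49 for Nnt and 2.46 for Myo5a, a coat colour gene in which DBA/2 carries a mutation. These genes were picked from the 6 tested ones of the list after their values were seen.

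The on and off pattern of H2-Ea-ps was shared by few genes. At most 0.1 scaled FPKM in all 6 libraries of 1 genotype and at least 1 in all 6 of the other was met by 9 genes. H2-Ea-ps, Gm10260 (13.1 to 37.6) and Hmga1b (2.49 to 6.29) were present in homozygous libraries, and Eif2s3y, Thrb, Xlr3b, Gm29650, 4930481A15Rik and Zfp951 in wild-type ones. H2-Ea-ps was the only one of the 9 on chromosome 17, and Eif2s3y and Gm29650 are on Y. Both genotypes are described as male, and other Y genes, looked at after these values were seen, were read in all 12 libraries: Ddx3y was at 19.8 scaled FPKM or more in wild-type cochleae and at 18.1 or more in homozygous ones, and Kdm5d at 3.69 to 6.44 and 1.18 to 1.79. Eif2s3y itself, a subunit of a translation initiation factor, was at 13.2 to 32.1 in wild-type cochleae and at most 0.0319 in homozygous ones. With limits of 0.05 and 0.5 there were 8, among them Gm50252 (0.708 to 1.94 in homozygous libraries), also on chromosome 17, and with limits of 0.2 and 2 there were 5, without H2-Ea-ps, whose lowest homozygous library had 1.11. Hmga1b and Gm10260 resemble other genes in sequence, so their reads can be split between copies.

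The genes whose pattern over the 12 libraries was most like the mean of H2-Aa, H2-Ab1, H2-Eb1 and Cd74 were, by Pearson's r on the log2 scale, Chek2 (0.98), Emilin1 (0.97), Rgs19 (0.95), Trpv2 (0.95), Tifab (0.95), Spag5 (0.94), Mgl2 (0.94), Tmsb10 (0.94), Ada (0.94) and Col1a1 (0.94). They were picked for this value, so it carries no test, and each was highest in homozygous middle replicate 1. Without the 2 libraries farthest from the median, homozygous middle replicate 1 and wild-type basal replicate 2, r was between 0.80 and 0.96. By Spearman's correlation 2 of these 10, Chek2 and Rgs19, were again among the 10 closest.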

How the data were processed

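RNA was sequenced from 3 cochlear turns of wild-type and 35delG homozygous mice, 12 libraries in 6 groups of 2. Per the labels, the authors extracted RNA with a micro kit and sequenced 150 nt paired ends. The submitters' processing notes name fastp 0.20.0, STAR 2.7.3a, featureCounts 2.0.0, StringTie 2.0, DESeq2 1.30.0 and mm10, and the paper's methods state that only uniquely aligned reads were kept. The deposited values are FPKM per gene. No counts were used here, so the depth of a library is unknown.

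Each library was scaled by its median ratio to the geometric mean over genes. Of 37432 genes, the 16215 that reached 1 FPKM in at least 2 libraries entered 1 limma fit (limma 3.58.1, R 4.3.3) of 6 group means to log2(scaled FPKM + 1), with an intensity trend in eBayes (6 residual df, 2.78 prior df) and two-sided p-values adjusted by Benjamini-Hochberg over those genes. Calls needed an adjusted p under 0.01 and more than 2-fold. The mean of the turns counts each turn once. The study calls the 2 libraries of a group biological repeats without giving the animals in each, and p-values measure the spread between these libraries. The fit was tested on simulated data with known changes.

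The members and lists were chosen with earlier results of these data known. By the rule for named genes, the text names the members, the genes called in each list, the 3 of highest mean in a pathway or strain list, genes with the pattern of H2-Ea-ps and the 10 closest to the class II mean. Cell type markers and genes said to be chosen after their values were seen are named besides. A few genes of the lists enter the counts but are not reported here by name. Neighbours start within 1 Mb of H2-Ea-ps in the table's coordinates. March1 and March8, whose names are dates in the table, were found by identifier. Sequences are from GENCODE and RefSeq (GRCm38). Alternatives were a pseudocount of 0.1, no filter, a filter of 5 FPKM, unscaled FPKM, quantile normalization, only the turns compared, library weights, no trend, an adjusted p under 0.05, a replicate block, each library left out and, added after the data were seen, leaving out the 2 libraries of highest class II level. Figures were drawn with matplotlib 3.10.9.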

Additional observations from a re-analysis of the deposited data

Results flagged for a closer look

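In 9 of the genes examined the genotype effect differed between the basal and the middle turn by the test of that difference itself (limma, adjusted p under 0.01 and more than 2-fold). None is one of the 7 class II members.

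The basal effect minus the middle effect (log2) was negative in 6 genes. It was −2.49 for H2-K1 (middle 0.94, basal −1.56, adjusted p = 0.00158), −2.28 for H2-D1 (1.01 and −1.26, adjusted p = 0.00345), −1.38 for Tapbp (0.66 and −0.72, adjusted p = 0.00766) and −1.58 for Tapbpl (0.65 and −0.93, adjusted p = 0.00548), all of the class I pathway. It was −2.17 for Ifi30 (0.79 and −1.38, adjusted p = 0.00284) and −2.56 for C2, a complement gene near H2-Ea-ps (1.22 and −1.35, adjusted p = 0.00534).

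It was positive in 3 genes, at 4.90 for Atp6v1g2 (middle −2.10, basal 2.81, adjusted p = 0.00227), 4.79 for Vwa7 (−1.58 and 3.20, adjusted p = 0.00433) and 4.02 for Flt3, a receptor of dendritic cell precursors (−1.74 and 2.27, adjusted p = 0.00453). Over all tested genes 8.91% were called in this comparison. The calls were 5 in the pathway lists, 6 among the genes near H2-Ea-ps (some in both) and 1445 over all genes. With only the turns compared they were 0 in each, with no filter 2, 2 and 296, and without wild-type middle replicate 1 they were 1, 2 and 280. With 2 libraries a group, no test for a library that stands apart from its group was made.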

How the results depend on the processing

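The 43 differences of the members were recomputed under 986 combinations of difference and setting. In 945 the direction and the side of the threshold were kept, and in 41 the direction turned. No member was called under any setting run, the median H2-Ea-ps level of homozygous libraries was 2.16 FPKM as deposited against 2.15 scaled, and the cause of each turn was not tested.

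All turns came from leaving out libraries. With homozygous middle replicate 1 and wild-type basal replicate 2 both left out, the log2 difference was 0.80 for Cd74 between genotypes in the basal turn. Basal minus middle was 0.31 for H2-Ea-ps, and middle minus apical was −0.060 for H2-Ea-ps and −0.083 for H2-Ab1. The basal minus the middle genotype effect was 1.57 for H2-Aa, 0.66 for H2-Ab1 and 1.16 for H2-Eb1. With 1 library left out at a time, a group left with 1 library being assumed to vary like the others, genotype in the basal turn ranged from −1.21 to 2.05 for H2-Aa, −0.57 to 1.42 for H2-Ab1, −0.74 to 1.27 for H2-Eb1 and −0.91 to 0.81 for Cd74. Basal minus middle ranged from −0.88 to 0.31 for H2-Ea-ps, −0.87 to 0.76 for H2-Aa, −0.51 to 0.64 for H2-Ab1, −0.50 to 0.56 for H2-Eb1, −0.24 to 0.15 for H2-DMa and −0.58 to 0.35 for Cd74. Middle minus apical ranged from −0.060 to 1.13 for H2-Ea-ps and −0.081 to 1.07 for H2-Ab1. The basal minus the middle genotype effect ranged from −3.08 to 0.19 for H2-Aa, −1.97 to 0.15 for H2-Eb1 and −0.045 to 0.75 for H2-DMa. In the mean of the turns the range was 0.43 to 1.51 for H2-Aa, 0.54 to 1.31 for H2-Ab1, 0.30 to 1.0 for H2-Eb1, 0.50 to 1.12 for Cd74 and 0.58 to 0.84 for H2-DMa (adjusted p 0.0333 to 0.229). The values of H2-Ea-ps between turns include its wild-type zeros.

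Counts over all genes moved more. The 696 genes called in the basal turn were 89 with no filter, 0 with only the basal libraries fitted, 22 with library weights, 1954 at an adjusted p under 0.05 and 40 to 1840 with 1 library left out. Replicate numbers were shared between groups, and the deviations of libraries of the same number correlated between −0.432 and 0.450 over the 15 pairs of groups. Whether libraries of the same number came from the same animals is not given, and these correlations do not settle it. With the replicate block 0 members were called, and over all genes 177 were called in the basal turn and 34 in the mean of the turns. Without read counts, what depth limits is unknown.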
